A study of Mus musculus with 21 samples.

Results

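Transcripts of 9 genes of the Polycomb repressive complexes were followed as mouse embryonic stem cells formed embryoid bodies with and without ascorbic acid (vitamin C). The genes were Ezh2, Ezh1, Eed, Suz12, Jarid2, Mtf2, Cbx7, Cbx2 and Bmi1, taken with every probe set that the array's annotation gives to each of them alone. They made up 9 of 18193 genes and 29 of 45037 tested probe sets. CGR8 cells, an established mouse embryonic stem cell line, were sampled undifferentiated at day 0 (medium labelled 10% GMEM) and as embryoid bodies at days 2, 3 and 5 (medium labelled 20% IMDM). Embryoid bodies are floating aggregates in which stem cells begin to form the germ layers, here started in hanging drops of 500 cells in 25 µL and shaken after day 2. They were grown with 100 µM ascorbic acid (AA) or as untreated controls, which gave 7 groups: day 0, then AA and control at each of days 2, 3 and 5. Each group held 3 biological replicates, 21 arrays in all, made from 100 ng of total RNA, and the submitters kept only cultures in which AA later raised the number of beating bodies. The cultures all came from 1 cell line, the arrays analysed here end at day 5, and each array reads a whole mixed culture.

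Polycomb proteins keep developmental genes silent by modifying histones around their promoters. Polycomb repressive complex 2 (PRC2) methylates histone H3 at K27 through Ezh2 or Ezh1, held in an active assembly by Eed and Suz12 and guided to chromatin by accessory proteins such as Jarid2 and Mtf2. Polycomb repressive complex 1 (PRC1) ubiquitinates histone H2A. Its canonical forms carry a chromobox protein such as Cbx7 or Cbx2, which reads methylated K27, and a PCGF protein such as Bmi1, the partner of the catalytic RING subunit. In embryonic stem cells these complexes cover the promoters of many regulators of later lineages, and Cbx7 is the chromobox protein best known from the pluripotent state.

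The upstream sequences of Cbx7, Jarid2 and Bmi1 are shown because these genes had the largest fall among the PRC1 members, the largest fall among the PRC2 members and the largest rise. Each runs 5′ to 3′ along the gene's strand over the 250 bases before the start site, from RefSeq on build GRCm38.p6. The positions are chr15:79932647-79932896 on the minus strand for Cbx7, chr13:44730524-44730773 on the plus strand for Jarid2 and chr2:18676768-18677017 on the plus strand for Bmi1. Capitals mark 3 motifs, searched on both strands. The GC box was spelled GGGCGG. The CCAAT box was searched as the letters of its name. The E-box was spelled CACGTG. Some GC boxes of Bmi1 overlap each other.
Cbx7: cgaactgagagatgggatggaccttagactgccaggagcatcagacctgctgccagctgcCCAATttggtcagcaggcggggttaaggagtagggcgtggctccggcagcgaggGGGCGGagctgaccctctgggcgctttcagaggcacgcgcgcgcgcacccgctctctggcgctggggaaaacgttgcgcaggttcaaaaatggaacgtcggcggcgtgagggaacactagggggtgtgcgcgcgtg
Jarid2: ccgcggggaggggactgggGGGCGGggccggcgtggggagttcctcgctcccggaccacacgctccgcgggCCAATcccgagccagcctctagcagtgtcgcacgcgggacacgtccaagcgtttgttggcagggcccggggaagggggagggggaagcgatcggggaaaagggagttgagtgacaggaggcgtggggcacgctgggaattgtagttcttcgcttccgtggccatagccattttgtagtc
Bmi1: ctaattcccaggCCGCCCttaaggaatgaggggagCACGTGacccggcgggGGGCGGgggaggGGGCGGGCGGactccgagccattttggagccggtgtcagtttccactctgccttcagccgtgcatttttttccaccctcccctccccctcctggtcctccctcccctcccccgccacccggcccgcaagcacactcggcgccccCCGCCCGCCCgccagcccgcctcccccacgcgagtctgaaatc
The Bmi1 window held 6 GC boxes, 1 E-box and 0 CCAAT boxes, while the Cbx7 and Jarid2 windows each held 1 GC box and 1 CCAAT box. Of 32851 RefSeq windows of the same length, 32.7% held a GC box, 33.8% a CCAAT box and 6.02% the E-box. Of the 9 members, 8 had an entry, and in the first window of each a GC box was found for 5, a CCAAT box for 4 and the E-box for 1. CpG dinucleotides numbered 12 (Eed) to 37 (Suz12) in these 8 windows, against a median of 6 over all windows. All 8 first windows were thus above that median, although 33.5% of all windows held at least as many as that of Eed. The second windows of Jarid2 and Mtf2 held 22 and 2. The letters are a description, not binding sites.

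Signals are on the log2 scale, on which 1 unit is a doubling, and levels of different probe sets cannot be set against each other. Each gene is described by the probe set that was brightest on average across the arrays. A difference was called where limma's Benjamini-Hochberg adjusted p over all 45037 probe sets was under 0.05. Across the 29 probe sets, 3 had no group mean of 5 or more: 1429630_at and 1429629_at of Ezh1 and 1453830_at of Eed. The arrays read bulk RNA, so fewer cells of a type and less RNA per cell cannot be told apart in any value below.

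Among the day 0 arrays, replicate 1 was unlike the others. It correlated with them at 0.974 and 0.972 over all probe sets, against 0.989 between the other 2. The mean log2 signal of 4 primed epiblast markers was 9.88 in it, against 7.39 and 6.93 in the other day 0 arrays and 10.33 to 10.89 at day 2. The mean of 7 pluripotency markers was 10.21 in it and 11.17 and 11.62 in the others. For the 9 genes, comparisons with day 0 are therefore given with and without this array where it changes a call. For the other Polycomb genes and the Polycomb targets named later, they are given only with it. Pluripotency markers averaged 6.29 to 6.74 in day 5 AA bodies and 6.40 to 6.85 in day 5 control bodies. The 4 trophoblast markers averaged 8.86 to 9.70 in day 5 AA bodies, 9.44 to 10.02 in day 5 control bodies and 6.19 to 6.92 at day 0. The 4 extraembryonic endoderm markers averaged 7.80 to 8.54 in day 5 AA bodies, 7.43 to 8.30 in day 5 control bodies and 6.08 to 6.36 at day 0. The 6 streak and mesoderm markers averaged 7.54 to 7.92 in day 5 AA bodies, 7.78 to 7.89 in day 5 control bodies and 6.21 to 6.29 at day 0. Of these, Pdgfra and Kdr averaged 10.47 and 10.42 at day 5 control and 5.45 and 7.62 at day 0. Mixl1, Eomes, Gsc and Mesp1 averaged 6.41, 7.17, 5.13 and 7.38 at day 5 control and 6.11, 6.72, 4.58 and 7.03 at day 0. Elf5 of the trophoblast list averaged 5.45 at day 5 control and 5.23 at day 0, and Afp of the endoderm list 5.42 and 5.19. The 4 fibroblast or feeder markers averaged 7.28 to 7.77 in day 5 AA bodies, 6.95 to 7.89 in day 5 control bodies and 6.20 to 6.62 at day 0. Other lists were not higher at day 5 control than at day 0. The cardiac markers averaged 5.63 to 6.14 at day 5 control and 5.68 to 6.57 at day 0. The neuroectoderm markers averaged 6.56 at day 5 control and 6.38 to 6.79 at day 0. Primed epiblast markers averaged 6.82 to 7.47 at day 5 control. At day 3 the streak and mesoderm mean was 8.86, 9.20 and 7.11 with AA and 9.19, 9.16 and 7.27 in control, so that replicate 3 was the low array in both arms. The part of this changing cell make-up in the Polycomb values was not tested.

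Over the whole course without AA, 5 of the 9 genes fell and 2 rose. The fallers were Cbx7, Jarid2, Eed, Mtf2 and Suz12, by 5.71-fold to 2.21-fold, and Bmi1 and Cbx2 rose 2.82-fold and 2.41-fold. The transcripts of both catalytic subunits of PRC2 showed no called change: Ezh2 differed by -0.05 ± 0.17 and Ezh1 by -0.10 ± 0.17 between day 5 control and day 0 (log2 difference ± standard error, n = 3 each). Of all 45037 probe sets 23.6% were called in this comparison (12.2% higher and 11.4% lower), and of the brightest probe sets of 18193 genes 28.4%. The median difference of the 9 genes was -1.14, against -0.04 over all probe sets. Without day 0 replicate 1 these 7 calls held, and Ezh2 also passed, with a difference of -0.35 (limma adjusted p = 0.0252).

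**Figure D1:**
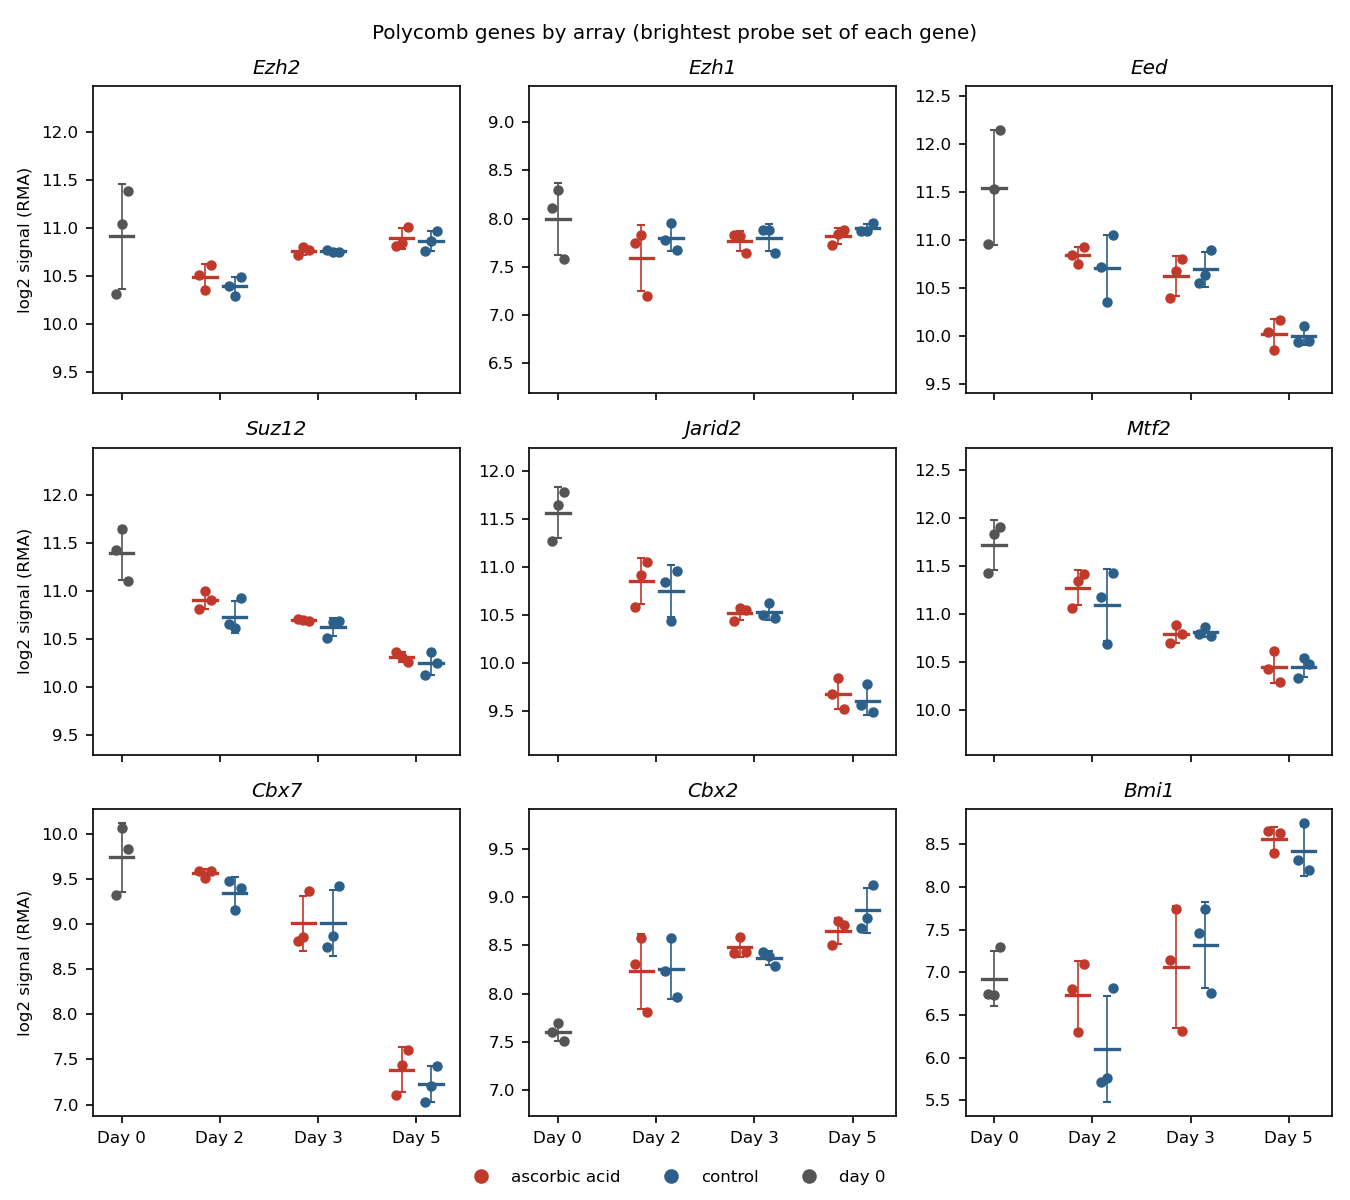
Log2 signal (vertical axis) of the brightest probe set of each of the 9 genes on every array, by day (horizontal axis); points are arrays, thick lines group means and bars SD (n = 3), red for ascorbic acid, blue for control and grey for day 0. Cbx7 and Jarid2 are lowest at day 5, and Bmi1 and Cbx2 are highest there. The widest gap between the red and blue means of a day is 0.63, for Bmi1 at day 2. The red and blue points of Cbx7 at day 2 do not overlap.

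Ezh2 is the methyltransferase that carries most PRC2 activity in proliferating cells. Its signals were 10.32, 11.05 and 11.39 at day 0, 10.51, 10.36 and 10.62 in day 2 AA bodies and 10.40, 10.30 and 10.49 in day 2 control bodies. At day 3 they were 10.72, 10.81 and 10.78 with AA and 10.78, 10.75 and 10.75 in control. At day 5 they were 10.82, 10.85 and 11.02 with AA and 10.77, 10.87 and 10.97 in control. The day 0 arrays spread more widely than any later group and enclosed the day 5 values, and day 2 was the lowest point in both arms. Day 2 control differed from day 0 by -0.52 ± 0.17, which missed the threshold (limma adjusted p = 0.0595). Without day 0 replicate 1, the lowest day 0 value, the difference was -0.82 in control bodies and -0.72 in AA bodies, both called (limma adjusted p = 2.95e-05 and 0.000126).

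Ezh1, the paralog with weaker methyltransferase activity that is best known from resting cells, had the narrowest range of group means among the 9 genes. Its signals were 8.11, 8.30 and 7.58 at day 0, 7.74, 7.83 and 7.19 in day 2 AA bodies and 7.78, 7.95 and 7.67 in day 2 control bodies. At day 3 they were 7.83, 7.82 and 7.64 with AA and 7.88, 7.88 and 7.64 in control. At day 5 they were 7.72, 7.84 and 7.88 with AA and 7.87, 7.87 and 7.95 in control. All of the day 5 values lay inside the day 0 range. Its 7 group means spanned 0.41, and each group overlapped the next in the order of levels. None of its 4 probe sets was called in any comparison by limma with all arrays. Without day 0 replicate 3, the lowest at day 0, day 2 AA differed from day 0 by -0.62 and was called (limma adjusted p = 0.0234), against -0.41 with it.

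Eed, the subunit that binds methylated K27 and stimulates the enzyme, fell early and again late. It read 10.96, 11.53 and 12.15 at day 0, 10.84, 10.75 and 10.93 in day 2 AA bodies and 10.72, 10.36 and 11.05 in day 2 control bodies. At day 3 it read 10.40, 10.68 and 10.80 with AA and 10.55, 10.64 and 10.90 in control. At day 5 it read 10.04, 9.86 and 10.17 with AA and 9.94, 10.11 and 9.95 in control. Every day 5 value was below every earlier one, and the highest day 2 value exceeded the lowest at day 0. The day 5 control mean was 2.92-fold below day 0 (log2 difference -1.55 ± 0.21, limma adjusted p = 1.23e-05), and the other probe set, 1453830_at, stayed under 5 in every group mean.

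Suz12, the scaffold on which PRC2 assembles, had 6 probe sets, and all 6 fell between day 0 and day 5 control. The brightest, 1420021_s_at, read 11.42, 11.64 and 11.10 at day 0, 10.81, 11.00 and 10.90 in day 2 AA bodies and 10.65, 10.61 and 10.92 in day 2 control bodies. At day 3 it read 10.70, 10.69 and 10.68 with AA and 10.51, 10.67 and 10.68 in control. At day 5 it read 10.36, 10.31 and 10.26 with AA and 10.12, 10.36 and 10.25 in control. The day 5 values lay below all day 0 values, and those of days 2 and 3 lay between. The fall to day 5 control was 2.21-fold (-1.14 ± 0.12, limma adjusted p = 4.19e-07), and the other 5 probe sets differed by -0.78 to -1.39.

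Jarid2, an accessory subunit that helps PRC2 bind chromatin and be activated there, fell most among the PRC2 members. It read 11.27, 11.65 and 11.78 at day 0, 10.59, 10.92 and 11.05 in day 2 AA bodies and 10.85, 10.44 and 10.96 in day 2 control bodies. At day 3 it read 10.44, 10.57 and 10.55 with AA and 10.50, 10.63 and 10.47 in control. At day 5 it read 9.68, 9.85 and 9.52 with AA and 9.56, 9.78 and 9.49 in control. No day 2 value reached the day 0 range, and no day 5 value reached any earlier one. Day 5 control was 3.88-fold below day 0 (-1.96 ± 0.15, limma adjusted p = 8.02e-09). Its other 2 probe sets fell by 1.86 and 2.14 on the log2 scale.

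Mtf2, a Polycomb-like protein that brings PRC2 to CpG-rich DNA, fell by less. Its signals were 11.43, 11.84 and 11.91 at day 0, 11.07, 11.35 and 11.42 in day 2 AA bodies and 11.18, 10.69 and 11.43 in day 2 control bodies. At day 3 they were 10.70, 10.89 and 10.80 with AA and 10.80, 10.87 and 10.78 in control. At day 5 they were 10.43, 10.62 and 10.30 with AA and 10.34, 10.55 and 10.48 in control. The highest day 5 value was below the lowest of every earlier group. The fall to day 5 control was 2.41-fold (-1.27 ± 0.16, limma adjusted p = 3.29e-06), and 5 of its 6 probe sets were called lower; 1445151_at was not.

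Cbx7 fell mainly between day 3 and day 5. The signals were 9.32, 10.06 and 9.83 at day 0, 9.59, 9.51 and 9.58 in day 2 AA bodies and 9.48, 9.15 and 9.40 in day 2 control bodies. At day 3 they were 8.81, 8.85 and 9.36 with AA and 8.74, 8.87 and 9.42 in control. At day 5 they were 7.11, 7.44 and 7.60 with AA and 7.03, 7.21 and 7.43 in control. The day 5 arrays were far below all others, and replicate 3 of day 3 was the highest of its group in both arms. Day 5 control was 5.71-fold below day 0 (-2.51 ± 0.20, limma adjusted p = 1.45e-08). This rests on 1433557_at alone: 1420039_s_at averaged 6.39 at day 5 control and 6.60 at day 0, 1449713_at averaged 5.79 at day 5 control and 5.62 at day 0, and neither was called. With the median of the 3 probe sets in place of the brightest, the difference was -0.21 (limma adjusted p = 0.426).

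Cbx2, the chromobox protein able to compact chromatin, moved the other way. It read 7.60, 7.69 and 7.51 at day 0, 8.31, 8.58 and 7.81 in day 2 AA bodies and 8.23, 8.58 and 7.96 in day 2 control bodies. At day 3 it read 8.42, 8.59 and 8.43 with AA and 8.43, 8.39 and 8.29 in control. At day 5 it read 8.50, 8.75 and 8.71 with AA and 8.68, 8.79 and 9.13 in control. All later arrays were above all day 0 arrays, and the AA and control arrays of a day overlapped. The rise to day 5 control was 2.41-fold (1.27 ± 0.18, limma adjusted p = 1.43e-05) by 1434116_at. Its other probe set, 1422059_at, averaged 6.53 at day 5 control and 6.37 at day 0 and was not called.

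Bmi1, the PCGF subunit known for silencing the Cdkn2a locus and for self-renewal of adult stem cells, had the most uneven course. The signals were 6.75, 6.73 and 7.30 at day 0, 6.80, 6.30 and 7.10 in day 2 AA bodies and 5.72, 5.76 and 6.82 in day 2 control bodies. At day 3 they were 7.14, 7.74 and 6.31 with AA and 7.46, 7.74 and 6.76 in control. At day 5 they were 8.66, 8.40 and 8.63 with AA and 8.32, 8.75 and 8.20 in control. Every day 5 signal exceeded every earlier one. The lowest signals of all were replicates 1 and 2 of day 2 control, and replicate 3 ran against the others of its group: highest at day 2 and lowest at day 3. Day 5 control exceeded day 0 by 2.82-fold (1.5 ± 0.33, limma adjusted p = 0.00194). The dimmer probe set, 1448733_at, gave 8.01, 8.08 and 8.00 at day 5 control and 5.32, 5.63 and 6.38 at day 0, a difference of 2.25 ± 0.29 (limma adjusted p = 5e-06).

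**Figure D2:**
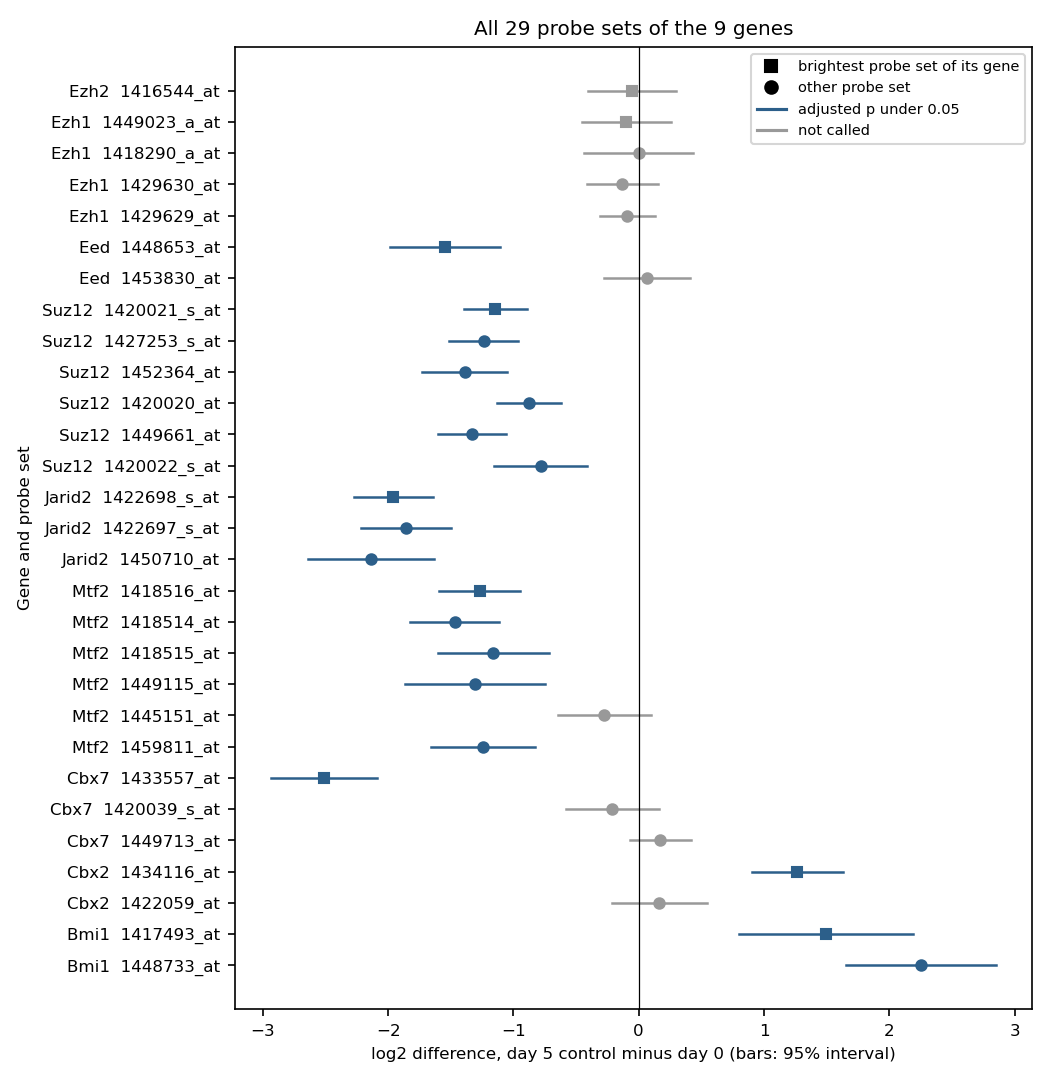
Log2 difference, day 5 control minus day 0 (horizontal axis), with its 95% interval for each of the 29 probe sets (vertical axis); squares are the brightest probe set of a gene, blue marks an adjusted p under 0.05 and grey the rest. Of the 29, 16 are called lower and 3 higher, and the probe sets of Suz12 and Jarid2 lie together while those of Cbx7 do not.

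The steps between successive days show when each gene moved. From day 0 to day 2 without AA, Eed (-0.84 ± 0.21), Suz12 (-0.66 ± 0.12), Jarid2 (-0.82 ± 0.15) and Mtf2 (-0.63 ± 0.16) fell and Cbx2 rose (0.66 ± 0.18). These were 5 of 9 genes (1 higher and 12 lower of the 29 probe sets), against 8.52% of all probe sets (3.44% higher and 5.08% lower). The calls for Eed, Mtf2 and Cbx2 had limma adjusted p of 0.0168, 0.0151 and 0.0235. They were lost on leaving out day 0 replicate 2, day 0 replicate 3 or day 2 control replicate 2 (adjusted p = 0.0541 to 0.125), and those for Eed and Cbx2 also on leaving out day 2 control replicate 1. Cbx7 differed by -0.39 ± 0.20 and passed only without day 0 replicate 1, at -0.60 (limma adjusted p = 0.0487). Bmi1 differed by -0.83 and was not called. It passed with array weights, at -1.12 (limma adjusted p = 0.0238), and without day 2 control replicate 3, at -1.19 (limma adjusted p = 0.0362). The gap between the 3′ and 5′ probe sets of Actb, which grows as RNA degrades, was 0.91 to 1.08 on the day 2 AA arrays, 0.94 to 1.40 on the day 2 control arrays and 0.79 to 0.87 at day 0, so that day 0 did not overlap day 2. The largest gap of all 21 arrays, 1.40, was that of day 2 control replicate 2. That array was also the lowest of its group for Ezh2, Eed, Suz12, Jarid2, Mtf2 and Cbx7. It was the highest of its group for Ezh1 and Cbx2. The part of the Actb gap in the day 2 steps was not tested.

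From day 2 to day 3 without AA, Bmi1 alone was called, 1 of 9 against 3.35% of all probe sets (2.85% higher). It rose 2.33-fold (1.22 ± 0.33, limma adjusted p = 0.0479). The Bmi1 means were 6.93 at day 0, 6.10 at day 2 control and 7.32 at day 3 control, so this rise started from below the day 0 level. Of the 29 probe sets, 2 were called higher and 0 lower. The dimmer probe set of Bmi1 rose 3.06-fold (limma adjusted p = 0.00419) from a day 2 control mean of 4.82, a signal near background. The call of the brightest probe set was lost without day 2 control replicate 1 or 2 or day 3 control replicate 1 or 2 (adjusted p = 0.151 to 0.265). The Actb gap was 1.22, 1.4 and 0.94 on day 2 control replicates 1, 2 and 3, and 0.96 to 1.05 at day 3 control. Replicates 1 and 2 of day 2 control, with the larger gaps, also held the lowest Bmi1 signals. The part of the Actb gap in this rise was not tested. The 4 PRC2 genes that had fallen by day 2 differed by -0.28 to -0.01 in this step. Replicate 3 of day 3, the array with low streak and mesoderm markers, was also the lowest of its group for Bmi1 and the highest for Cbx7 in both arms; the part of these markers in the steps to and from day 3 was not tested.

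From day 3 to day 5 without AA, Cbx7 fell 3.45-fold (-1.79 ± 0.20), Jarid2 1.90-fold (-0.92 ± 0.15), Eed 1.62-fold (-0.70 ± 0.21) and Suz12 1.30-fold (-0.38 ± 0.12), while Bmi1 rose 2.15-fold (1.10 ± 0.33). These were 5 of 9 genes (2 higher and 9 lower of the 29 probe sets), against 13.2% of all probe sets (6.76% higher and 6.45% lower). Most of the total fall of Cbx7 by its brightest probe set thus lay in this last step. With the median of its probe sets the difference was -0.19 (limma adjusted p = 0.58). From day 3 AA to day 5 AA this median gave -0.20 (limma adjusted p = 0.546). The adjusted p by limma was 2.95e-06 for Cbx7 and 0.000226 for Jarid2, and 0.0306 to 0.0401 for Bmi1, Eed and Suz12. Without day 3 control replicate 3 the count was 2, Cbx7 and Jarid2, and Bmi1 differed by 0.82 (adjusted p = 0.192). Without day 5 control replicate 1 the count was also 2. It was 3 without day 3 control replicate 2 and without day 5 control replicate 2 or 3.

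The bodies grown with AA gave a second set of arrays for these steps, though not a fully independent one. Within a day, AA and control arrays of one replicate number deviated together (r of 0.16 to 0.606 in 9 pairs). From day 2 AA to day 3 AA limma called 0 of 9 genes (3 at an unadjusted p under 0.05), against 2.94% of all probe sets (14.2% unadjusted), and Bmi1 differed by 0.33 ± 0.33. From day 3 AA to day 5 AA, Cbx7 fell 3.08-fold (-1.62 ± 0.20), Jarid2 fell 1.79-fold (-0.84 ± 0.15), Suz12 fell 1.30-fold (-0.38 ± 0.12) and Bmi1 rose 2.83-fold (1.5 ± 0.33). These were 4 of 9 genes (2 higher and 8 lower of the 29 probe sets), against 13% of all probe sets (6.73% higher and 6.3% lower). Eed differed by -0.60 ± 0.21 (limma adjusted p = 0.0678). The call of Suz12 was lost on leaving out any 1 of these 6 arrays (adjusted p = 0.0686 to 0.11). From day 0 to day 2 AA, a comparison that shares its day 0 arrays with the control step, Eed (-0.71), Suz12 (-0.48) and Jarid2 (-0.71) fell and Cbx2 rose (0.63). These were 4 of 9 genes (1 higher and 7 lower of the 29 probe sets), against 9.73% of all probe sets (5.31% higher and 4.42% lower). Without day 0 replicate 1, Mtf2 was also called (-0.60, limma adjusted p = 0.0127). Only the call of Jarid2 held without day 0 replicate 2 and without day 2 AA replicate 1, and only those of Jarid2 and Suz12 of these 4 without day 0 replicate 3 and without day 2 AA replicate 2. Eed lost its call without any of these arrays other than day 0 replicate 1 (adjusted p = 0.0684 to 0.221), and its difference was -0.41 without day 0 replicate 3.

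Whether AA itself changed these genes was tested within each day. At days 2, 3 and 5, and on their average, limma called 0 of 9 genes and 0 of 29 probe sets. In this unpaired fit none of the 9 brightest probe sets passed at an unadjusted p under 0.05. Of the 29 only 1452364_at of Suz12 passed, at day 2, against 7.03%, 1.55% and 3.2% of all probe sets at days 2, 3 and 5. Few probe sets were called anywhere: 0.00444% of all at day 2, 0.00222% at day 3, 0.0688% at day 5 and 0.0155% on average. With the AA and control cultures of a replicate number treated as pairs within each day, 1.64%, 0.091%, 0.615% and 1.06% of all probe sets were called, and still 0 of the 9 genes.

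The widest difference was that of Bmi1 at day 2. AA bodies averaged 6.73 ± 0.40 and control bodies 6.10 ± 0.62 (SD, n = 3 each), a log2 difference of 0.63 ± 0.33 (limma adjusted p = 0.727). The AA array was the higher in 3 of 3 pairs, although the groups overlapped. With the pairs as blocks the difference was 0.63 ± 0.16 (limma adjusted p = 0.0585). Ezh1 was higher with AA in 0 of 9 pairs over the days, with an average paired difference of -0.11 ± 0.06 (limma adjusted p = 0.58). Day 3 replicate 3 was a tie, at 7.64 in both arms. The share of all probe sets with such one-sided pairs was not computed. For Bmi1 at day 3 the sign was the opposite, -0.26 ± 0.33, and an F test of whether the effect of AA differed between days gave an adjusted p of 1 by limma (unadjusted p = 0.191). In that F test 0.00666% of all probe sets were called. Of the 9 genes at day 2, only Cbx7 had groups that did not overlap, with 9.59, 9.51 and 9.58 in AA bodies against 9.48, 9.15 and 9.40 in control bodies, and 12.8% of all probe sets had such a gap at that day. The Suz12 probe set 1452364_at read 9.59, 9.88 and 9.73 in day 2 AA bodies and 9.50, 9.0 and 9.44 in day 2 control bodies (0.42 ± 0.16, limma adjusted p = 0.658). The part of the Actb gap at day 2, given above for both groups, was not tested here either.

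**Figure D3:**
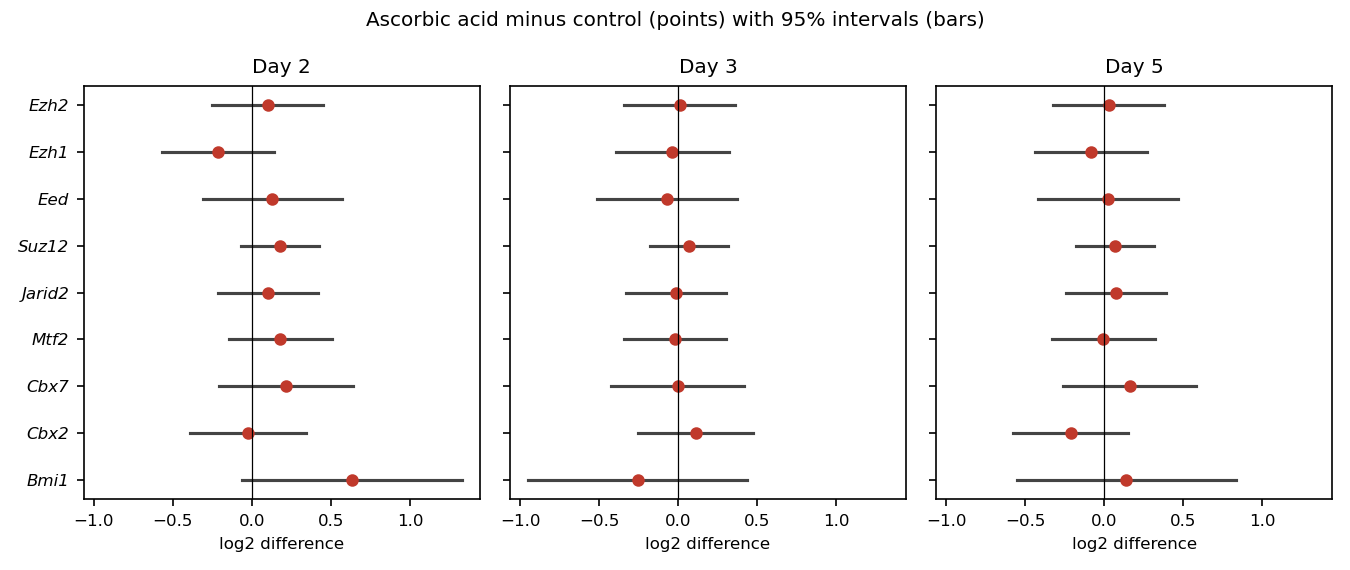
Log2 difference, ascorbic acid minus control (horizontal axis), for the 9 genes (vertical axis) at days 2, 3 and 5; points are differences and bars 95% intervals from the fit on all arrays. Every interval of this unpaired fit includes 0, and those of Bmi1 are the widest.

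The intervals of the unpaired fit bound what that fit could have missed. At day 5 the 95% intervals of the 9 genes ran from -0.58 to 0.83, and without Bmi1 from -0.58 to 0.58, so that a change above 1.5-fold lay outside them for each of the other 8 genes. At day 2 the same 8 intervals lay within 1.56-fold and at day 3 within 1.42-fold. For Bmi1 the day 2 interval reached 2.51-fold. The paired fit gave this Bmi1 difference a smaller standard error, and intervals of the paired fit are not given.

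Other Polycomb genes were read from a list by role, and the 37 with a probe set annotated to them alone are given here. Between day 5 control and day 0, 12 were higher, 10 lower and 15 not called, where 12.2% of all probe sets were called higher and 11.4% lower (28.4% in either direction among the brightest of each gene), with a median difference of 0.02 against -0.04 over all probe sets. Yaf2, a subunit of variant PRC1, rose most: it averaged 9.94 ± 0.23 at day 5 control and 7.11 ± 0.28 at day 0 (SD, n = 3), a 7.14-fold change. Phc2, a polyhomeotic subunit of canonical PRC1, rose 5.62-fold, while its paralog Phc1 fell 6.60-fold, with means of 9.14 ± 0.12 at day 5 control and 11.86 ± 0.08 at day 0. Epop, a PRC2 accessory protein of pluripotent cells, fell 3.26-fold. Kdm6b, which removes K27 methylation, rose 2.43-fold, and Usp7, a deubiquitinase found with variant PRC1, fell 2.31-fold.

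By role, and against the same 12.2% higher and 11.4% lower, the PRC2 core partners gave 1 higher of 2, the PRC2 accessory genes 0 higher and 3 lower of 6, and the variant PRC1 genes 5 higher and 4 lower of 9. The catalytic RING genes gave 1 higher of 2 and the PCGF genes other than Bmi1 gave 1 lower of 5. The polyhomeotic and SAM genes gave 1 higher and 1 lower of 5. The other chromobox genes gave 1 higher of 2, the PR-DUB genes, which remove the mark of PRC1, 2 higher and 1 lower of 4, and the K27 demethylases 1 higher of 2. Yaf2 had already risen 3.36-fold from day 0 to day 2 in control bodies, where 2 of the 37 genes were higher and 5 lower, against 3.44% and 5.08% of all probe sets; Epop, Mga, Aebp2 and Phc1 fell by 1.13, 0.92, 0.91 and 0.67 on the log2 scale. From day 2 to day 3, 5 of the 37 were higher, against 2.85% of all probe sets, and 0 lower, led by Phc2 (1.42 ± 0.27). From day 3 to day 5, 5 were higher and 6 lower, against 6.76% and 6.45% of all probe sets, and Phc1 fell 3.61-fold. AA called 0 of the 37 at any day by limma (4, 0 and 3 at an unadjusted p under 0.05 at days 2, 3 and 5, against 7.03%, 1.55% and 3.2% of all probe sets).

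**Figure D4:**
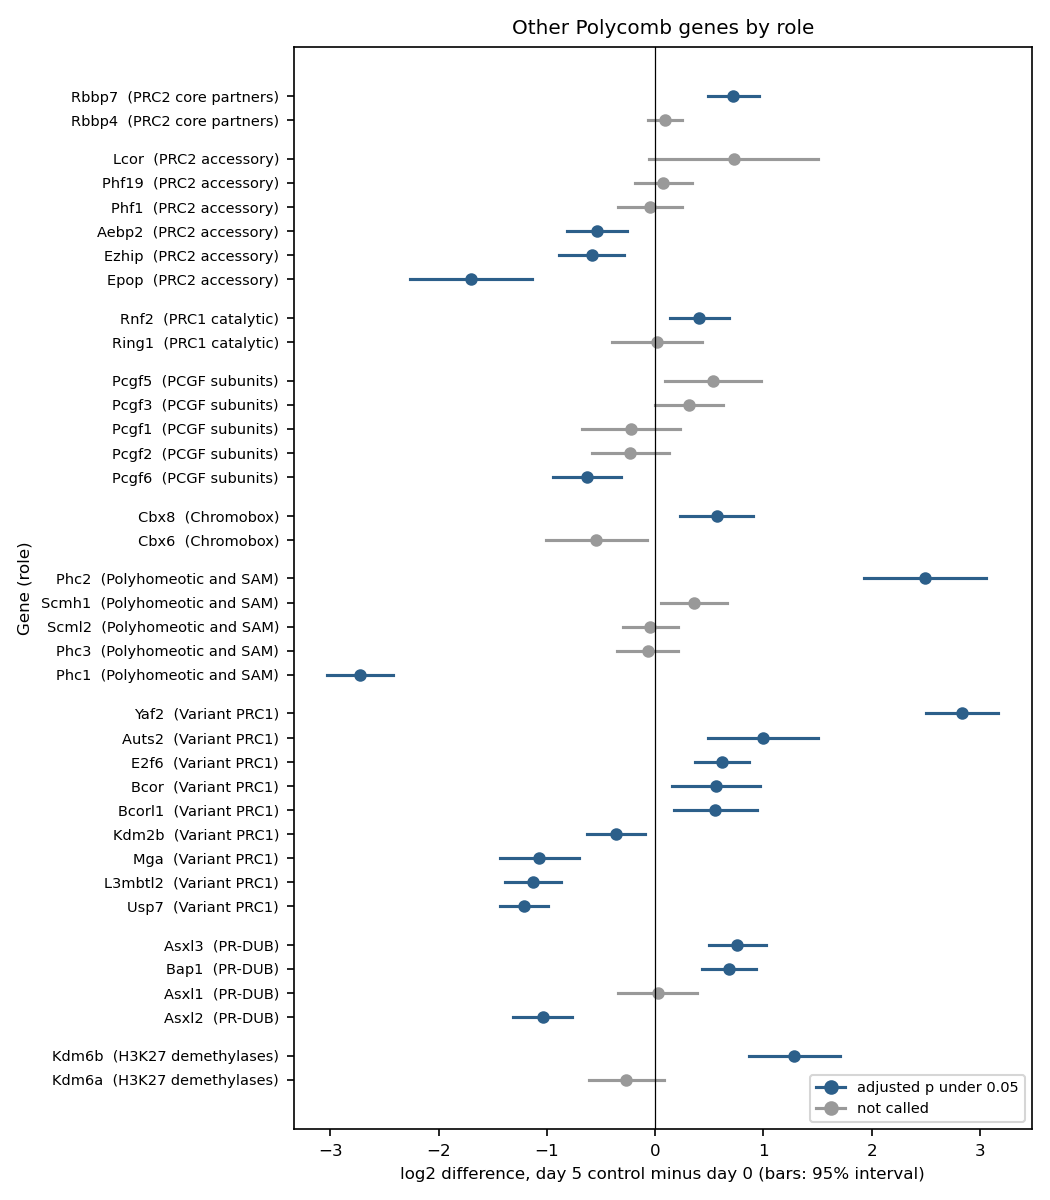
Log2 difference, day 5 control minus day 0 (horizontal axis), with 95% intervals for 37 other Polycomb genes grouped by role (vertical axis); blue marks an adjusted p under 0.05 and grey the rest. Yaf2 and Phc2 lie farthest to the right and Phc1 farthest to the left.

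A list of 26 textbook targets of Polycomb silencing in embryonic stem cells, of which 25 could be measured, was read beside them. Between day 5 control and day 0, 9 rose, 0 fell and 16 were not called by limma (11 had an unadjusted p under 0.05). Of all probe sets 12.2% were called higher and 11.4% lower. The median difference was 0.17 for the targets and -0.04 over all probe sets. Such targets are listed for being silent in embryonic stem cells. Olig2, Nkx2-2, Cdkn2a and Neurog2 averaged 3.13, 4.01, 4.31 and 4.39 at day 0. A fall from such levels could hardly be seen in any step, so 0 fallers is no result for them. Gata6, an endoderm and heart transcription factor, averaged 9.95 ± 0.10 at day 5 control and 6.61 ± 0.21 at day 0 (SD, n = 3). Hoxb1 and Hoxd9, which pattern the body axis, rose 9.49-fold and 6.01-fold. Lhx1, a regulator of the early streak and head, averaged 7.99 at day 5 control and 4.39 at day 0, a level near the low end of the signals. In the step from day 3 to day 5, 7 of the 25 rose and 0 fell in AA bodies, and 7 rose and 0 fell in control bodies, where 6.73% and 6.76% of all probe sets were called higher and 6.3% and 6.45% lower; Gata6 differed by 3.09 ± 0.24 in AA bodies and 2.79 ± 0.24 in control bodies. Gata6 is also one of the extraembryonic endoderm markers whose mean was higher at day 5 than at day 0. AA called 0 of the 25 at any day by limma (1, 0 and 2 at an unadjusted p under 0.05 at days 2, 3 and 5, against 7.03%, 1.55% and 3.2% of all probe sets).

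For each gene whose group means spanned at least 1, the 3 most similar profiles were sought among 3254 genes, as Pearson r over the 21 arrays. These arrays share days and cultures, so the values describe these cultures and no p is given. Jarid2 was most like Zfp42 (0.979), a marker of pluripotent cells, Trap1a (0.975) and Hspb1 (0.973). Cbx7 was most like Pycard (0.983), Slc7a3 (0.978) and Msh6 (0.978). Suz12 was most like Ticrr (0.959), Tasor (0.927) and Tet1 (0.925), the last a dioxygenase that oxidises methylcytosine. Eed was most like Steap1 (0.971), Herc4 (0.964) and Nfatc2ip (0.958), and Mtf2 like Acadm (0.966), Polr2e (0.965) and Mylpf (0.957). Of the rising genes, Bmi1 was most like Smim10l1 (0.952), Manea (0.941) and Srek1ip1 (0.940), and Cbx2 like Rilpl2 (0.935), Zfp647 (0.923) and Nsmf (0.920).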

How the data were processed

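The deposited values are log2 signals per probe set, made by the authors with RMA per the submitters' processing notes (the RMA version was not stated in the labels). RMA subtracts a modelled background, quantile-normalises the arrays and combines the probes of each set, so totals are equalised between arrays and low signals are compressed. Of 45101 probe sets, 64 array controls were left out. In the platform annotation 34945 of the rest had 1 gene symbol, 932 several and 9160 none. A gene was represented by its brightest probe set.

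The 7 group means were fitted in R 4.3.3 with limma 3.58.1 (lmFit, eBayes with an intensity trend), unpaired, and p-values were adjusted over 45037 probe sets. The method was tested on simulated data. The members, lists, tests and naming rule (all members; up to 6 called other Polycomb genes and 4 called targets with the largest change per comparison; the 3 most similar genes) were chosen with earlier results of these data known.

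Within a day, AA and control arrays that carry one number deviated together from their group means (r of 0.16 to 0.606 in 9 of 9 pairs, over the preset 0.1), so a paired fit is given. Precision is set by the number of arrays, 3 a group. Alternatives were the block, the trend, array weights, renewed quantile normalization, the probe set rule, the groups fitted and leaving out each array.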

Additional observations from a re-analysis of the deposited data

How the results depend on the processing

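Between day 5 control and day 0, the number of called genes among the 9 was 6 to 8 in all 14 alternatives, against 7, and the 7 genes kept their direction. Cbx7 lost its call with the median of its probe sets. The other 6 were called in all 14. The shorter steps depended more on the settings. With arrays of the compared groups only, the called genes numbered 0 at day 2 control against day 0, 0 at day 2 AA against day 0, 0 at day 3 against day 2 control and 2 at day 3 against day 2 AA. With the median of a gene's probe sets they numbered 2, 1 and 3 at day 2 control against day 0, day 2 AA against day 0 and day 5 against day 3 control. With array weights they numbered 3 at day 3 against day 2 control and 1 in the AA arm, and without the intensity trend 0 at day 3 against day 2 control. Leaving out 1 array at a time gave 2 to 7 at day 2 control against day 0, 1 to 6 at day 2 AA against day 0, 0 to 1 at day 3 against day 2 control and 2 to 4 at day 5 against day 3 control. The cause of these shifts was not tested, but fewer arrays enter the fits on the compared groups only.

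With the replicate block of AA and control pairs, 0 of the 9 genes were called at days 2, 3 and 5, as in every other alternative. Over all probe sets the block gave 737, 41 and 277 calls at those days, against 2, 1 and 31 without it. Of the recomputed counts over all probe sets, 83 moved by more than 1.5 times and 114 did not. For AA the counts ran from 0 to 767 at day 2, 0 to 41 at day 3 and 8 to 277 at day 5. On the average of days they ran from 4 to 479, and for the difference between days from 1 to 169. They ran for day 2 control against day 0 from 265 to 8483, for day 2 AA against day 0 from 1209 to 6468, for day 3 against day 2 control from 234 to 7386, for day 3 against day 2 AA from 275 to 3371, for day 5 control against day 0 from 5162 to 11562, for day 5 against day 3 control from 3049 to 7503 and for day 5 against day 3 AA from 2992 to 7785. With the replicate number as a block across all days, which the labels do not say is shared, Ezh2 at day 2 control against day 0, Cbx2 at day 5 against day 3 control and Eed at day 5 against day 3 AA were also called by limma (adjusted p = 0.031, 0.0427 and 0.0212). Of the recomputed differences of single genes, 1432 kept their side of the threshold, 30 gained a call, 68 lost one and 0 turned the sign of a call. Signals near background limit 3 of the 29 probe sets in every group, by the limit of 5. Others came near it in some groups, such as 1448733_at of Bmi1, which averaged 4.82 at day 2 control.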
